A study of Mus musculus with 8 samples.

Results

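The 10 genes described here are transcription factors that shape conventional dendritic cell identity outside the circuit of Irf8 and Batf3: Zbtb46, Bcl6, Relb, Spi1, Bcl11a, Ikzf1, Etv6, Runx3, Gfi1 and Irf4. They were chosen by name with earlier results of these data known, as were the gene lists used below. Counts of them set beside all genes are therefore descriptions. Each factor was read from a probe set that the array's annotation gives to that gene alone. All 10 were measured, among 19938 genes tested. Messenger RNA was profiled on Affymetrix mouse gene arrays in 4 groups of progenitors sorted from bone marrow, with 2 arrays in each and 8 in total. The groups were Id2-GFP+ pre-CD8, Id2-GFP- pre-CD8, Id2-GFP+ CDP and Id2-GFP- CDP. CDP abbreviates common dendritic cell progenitor. The labels name pre-CD8 as a progenitor and do not give its gate. GFP stands for the green fluorescence by which each progenitor was divided.

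Titles and sources name a mouse with GFP inserted at Id2 for all 8 arrays. The genotype field names heterozygous Id2-IRES-GFP mice for 2 arrays, both of Id2-GFP- CDP, and heterozygous Zbtb46-GFP mice for the other 6, which are all arrays of the remaining groups. The groups were taken from the titles. Every comparison with Id2-GFP- CDP therefore also crosses the genotype field, and population and genotype cannot be told apart there. If the genotype field were right, GFP would report Zbtb46 itself in the other 3 groups, and the Zbtb46 difference within pre-CD8 would restate the sort. Within pre-CD8, Id2 and Zbtb46 both had their higher arrays on the GFP+ side, so their direction does not settle which field holds. The field also bears on Zbtb46, since in the Zbtb46-GFP knock-in known to the field the reporter takes the place of coding sequence on the targeted allele.

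Conventional dendritic cells arise in bone marrow from progenitors that lose monocyte and lymphoid potential step by step. Spi1 opens myeloid enhancers early. Repressors of the zinc finger kind, among them Bcl6 and Zbtb46, then close alternative programs, and Zbtb46 is used as a marker of the committed conventional lineage among immune cells. The Id2 protein blocks E proteins, the helix-loop-helix factors that favour plasmacytoid dendritic cells and lymphocytes, and mouse cDC1, the CD8 type of conventional dendritic cell, depend on it.

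Values are log2 intensities, and a difference is the log2 mean of the group named first minus that of the group named after it. Differences carry the standard error of a limma fit over all 8 arrays. An adjusted p under 0.05, over all 19938 genes, counts as past the test. No label ties a replicate to an animal of its own, and the p-values may therefore rest on technical spread alone. Mean intensity was 460.7 to 477.9 on a brighter array of each group and 401.6 to 413.8 on a dimmer one, so differences are also given within each of these 2 array sets where the call depends on them. Id2 itself had 10.69 and 10.99 in Id2-GFP+ pre-CD8, against 5.90 and 7.18 in Id2-GFP- pre-CD8. In Id2-GFP+ CDP it had 9.77 and 9.26, and in Id2-GFP- CDP 5.14 and 6.30, so all 4 Id2-GFP+ arrays lay above all 4 Id2-GFP- arrays. Csf1r, a receptor used to define the CDP, averaged 8.01 ± 0.12 among Id2-GFP+ pre-CD8 arrays and 9.10 ± 0.28 among Id2-GFP- pre-CD8 arrays (SD, n = 2). It averaged 10.34 ± 0.28 in Id2-GFP+ CDP and 11.04 ± 0.10 in Id2-GFP- CDP (SD, n = 2), so both pre-CD8 groups were below both CDP groups. Clec9a, a receptor of cDC1, averaged 10.16 ± 0.54 among Id2-GFP+ pre-CD8 arrays and 5.88 ± 0.58 among Id2-GFP- pre-CD8 arrays (SD, n = 2). The Id2-GFP- pre-CD8 value was below the 9.26 ± 0.36 of Id2-GFP+ CDP and the 9.28 ± 0.52 of Id2-GFP- CDP (SD, n = 2). Taken alone, Clec9a goes against the label of Id2-GFP- pre-CD8. The list of 15 cDC1 markers measured was mixed. Against Id2-GFP- CDP, 1 passed upward (Gcsam) and 1 downward (Clec9a), with a median of -0.06. Summed intensities were 8112 to 9192, against 7401 to 8417 in Id2-GFP- CDP. Against Id2-GFP+ CDP, 0 passed upward and 6 downward.

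Zbtb46 and Bcl6, both repressors with a BTB domain and zinc fingers, had the widest spread of group means among the 10 factors, 2.05 and 2.66 on the log2 scale. Because their levels followed each other across the arrays (Pearson r = 0.96 over 8 arrays, which share the same groups and array sets), their start regions are shown. Both are RefSeq windows of 300 bases, 250 before and 50 after an annotated transcript start, in the GRCm38.p6 build and read 5′ to 3′ on the minus strand. The Zbtb46 window, chr2:181424339-181424638, lies inside the annotated gene (chromosome 2, 181371009 to 181493262), not at its outer start.
Zbtb46: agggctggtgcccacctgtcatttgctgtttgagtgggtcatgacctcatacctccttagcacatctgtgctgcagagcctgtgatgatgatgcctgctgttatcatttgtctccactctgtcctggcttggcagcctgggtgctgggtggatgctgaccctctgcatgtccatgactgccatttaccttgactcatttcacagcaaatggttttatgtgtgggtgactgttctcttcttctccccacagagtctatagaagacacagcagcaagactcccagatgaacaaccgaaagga
The Bcl6 window, chr16:23988803-23989102, spans the outer start of the gene (chromosome 16, 23965050 to 23988866), and capitals mark its only match to the motifs searched.
Bcl6: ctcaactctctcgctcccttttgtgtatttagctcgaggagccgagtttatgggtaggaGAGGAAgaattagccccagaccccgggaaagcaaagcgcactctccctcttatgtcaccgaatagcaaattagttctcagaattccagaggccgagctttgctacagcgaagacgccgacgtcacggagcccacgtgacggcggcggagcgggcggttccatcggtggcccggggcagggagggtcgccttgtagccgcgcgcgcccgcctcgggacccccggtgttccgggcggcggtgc
Searched on both strands were CAGCTG (an E-box), GAGGAA (Ets), TGTGGT (Runx), AAATCNC (Gfi1), a kappa B motif and an interferon-stimulated element. Other E-box forms were not searched, such as CACCTG, present in the printed Zbtb46 window, and CACGTG, present in that of Bcl6. The Zbtb46 window held none of the letters searched, and neither did a second RefSeq window of Bcl6, chr16:23981234-23981533. The Bcl6 window printed above held GAGGAA with its first base at -191 from the start, a string present in 28.3% of 32851 such windows. RefSeq windows were matched for 8 of the 10 genes, 12 windows in all. Among the others, Irf4 held GAGGAA, Runx3 held TGTGGT at 2 places and Etv6 held the interferon-stimulated element, which occur in 28.3%, 16.8% and 3.4% of all windows. A match is a description of the letters and shows no binding.

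Zbtb46 was highest in Id2-GFP+ pre-CD8, intermediate in Id2-GFP+ CDP and lowest in both Id2-GFP- groups. It had 7.68 and 8.04 in Id2-GFP+ pre-CD8, against 5.50 and 6.12 in Id2-GFP- pre-CD8. It had 7.08 and 6.96 in Id2-GFP+ CDP, against 5.48 and 6.13 in Id2-GFP- CDP. All 4 Id2-GFP+ arrays were above all 4 Id2-GFP- arrays, and the Id2-GFP- groups overlapped, with means of 5.81 ± 0.44 in pre-CD8 and 5.81 ± 0.46 in CDP (SD, n = 2). Within pre-CD8 the difference was 2.05 ± 0.29, or 4.15-fold (limma adjusted p = 0.00472), and it passed with any array left out (adjusted p of up to 0.0444). Within CDP it was 1.21 ± 0.29 with a 95% interval of 0.56 to 1.87, which did not pass (limma adjusted p = 0.218). The gap between replicates in the Id2-GFP- groups, up to 0.65, followed the array set, the dimmer array being higher in each. With the array set as a block, a fit chosen after seeing the data, the CDP difference passed (limma adjusted p = 0.00806), and it was 1.48 within the brighter set and 0.95 within the dimmer set.

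Bcl6, the repressor known best for germinal centre B cells and in mouse also needed for cDC1, also had its highest mean in Id2-GFP+ pre-CD8. Its mean in Id2-GFP+ CDP was second, and those of the Id2-GFP- groups were lowest, with wider gaps than for Zbtb46. Between the Id2-GFP+ groups neither gene passed in limma (adjusted p = 0.527 for Bcl6). Bcl6 had 8.99 and 9.34 in Id2-GFP+ pre-CD8, against 6.64 and 6.37 in Id2-GFP- pre-CD8. It had 8.27 and 8.25 in Id2-GFP+ CDP, against 6.73 and 6.94 in Id2-GFP- CDP. No pair of groups overlapped, and replicates differed by at most 0.35. Bcl6 rose by 2.66 ± 0.21 in Id2-GFP+ over Id2-GFP- pre-CD8, or 6.34-fold (limma adjusted p = 0.000632). It rose by 1.43 ± 0.21 in Id2-GFP+ over Id2-GFP- CDP, or 2.69-fold (limma adjusted p = 0.0318). The pre-CD8 call held with each of the 8 arrays left out in turn. The CDP call was lost in 6 of these 8 fits, with any CDP array or either Id2-GFP- pre-CD8 array left out, where the adjusted p reached 0.352 and the difference stayed between 1.32 and 1.53. It also just missed when every probe set was tested (adjusted p = 0.0530) or only the CDP arrays were fitted (adjusted p = 0.0515).

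**Figure D1:**
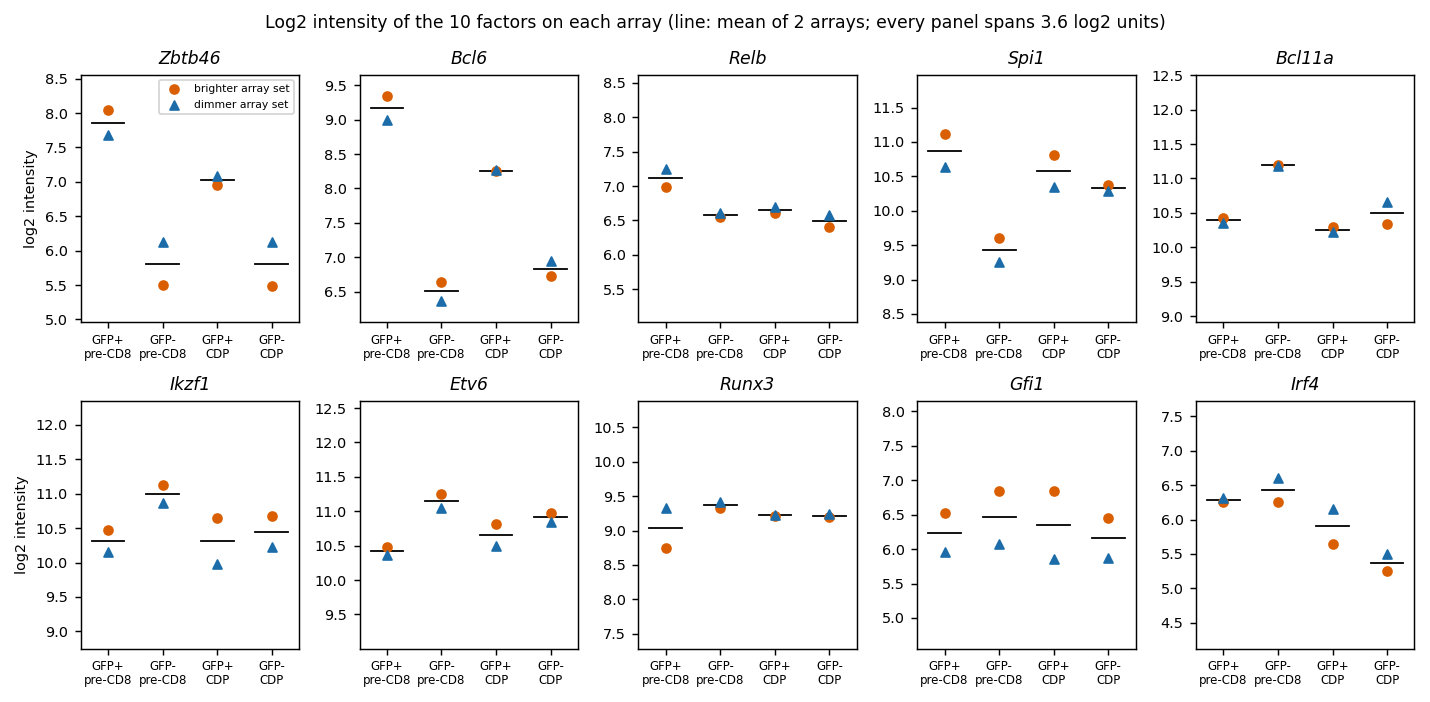
Log2 intensity (y axis) of each of the 10 factors on every array, by group (x axis), with circles for the brighter array, triangles for the dimmer array and a line at the mean of 2 arrays. Zbtb46 and Bcl6 are high in both Id2-GFP+ groups, Spi1 is low in Id2-GFP- pre-CD8, and Bcl11a, Ikzf1 and Etv6 have their highest means there.

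Spi1 encodes PU.1, the Ets family factor that myeloid and dendritic progenitors depend on. Its mean was lowest in Id2-GFP- pre-CD8, although the difference from Id2-GFP- CDP, -0.90 ± 0.25, did not pass (limma adjusted p = 0.160). Spi1 had 10.64 and 11.11 in Id2-GFP+ pre-CD8, against 9.61 and 9.25 in Id2-GFP- pre-CD8. It had 10.35 and 10.81 in Id2-GFP+ CDP, against 10.38 and 10.29 in Id2-GFP- CDP. The 2 Id2-GFP- pre-CD8 arrays were the lowest of the 8, and Id2-GFP+ CDP overlapped with both of the other groups. Spi1 rose by 1.44 ± 0.25 in Id2-GFP+ over Id2-GFP- pre-CD8, or 2.72-fold (limma adjusted p = 0.0117). The same difference in CDP was 0.25 ± 0.25, with a 95% interval of -0.32 to 0.81 and an adjusted p of 1. The pre-CD8 call was lost when replicate 2 of Id2-GFP+ pre-CD8 or replicate 2 of Id2-GFP- pre-CD8 was left out, with an adjusted p of up to 0.103.

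Relb, the NF-kappa B subunit of the noncanonical pathway that some dendritic cell subsets require, moved in a narrow range. It had 7.24 and 6.98 in Id2-GFP+ pre-CD8, against 6.55 and 6.61 in Id2-GFP- pre-CD8. It had 6.70 and 6.61 in Id2-GFP+ CDP, against 6.40 and 6.58 in Id2-GFP- CDP. Both Id2-GFP+ pre-CD8 arrays were above the other 6, which lay between 6.40 and 6.70. The difference of 0.53 ± 0.18 between Id2-GFP+ and Id2-GFP- pre-CD8 did not pass (limma adjusted p = 0.157). It did once the array set was a block (limma adjusted p = 0.0103), and it was 0.43 and 0.63 within the brighter and the dimmer set.

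Bcl11a, a zinc finger factor needed for B cells and plasmacytoid dendritic cells, ran the other way. It had 10.35 and 10.43 in Id2-GFP+ pre-CD8, against 11.20 and 11.18 in Id2-GFP- pre-CD8. It had 10.22 and 10.29 in Id2-GFP+ CDP, against 10.34 and 10.66 in Id2-GFP- CDP. The Id2-GFP- pre-CD8 arrays were above the other 6, and their SD was 0.02. Bcl11a fell by 0.80 on the log2 scale in Id2-GFP+ against Id2-GFP- pre-CD8, with an SE of 0.18 and a fold of 0.575 (limma adjusted p = 0.0349). That call held when either Id2-GFP+ CDP array was left out. It was lost when any of the other 6 was, with an adjusted p of up to 0.197 and a difference between -0.84 and -0.76.

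Ikzf1, which encodes the lymphoid regulator Ikaros, and Etv6, an Ets family repressor of haematopoietic stem cells that mouse dendritic cells also use, had their highest means in Id2-GFP- pre-CD8 too. Ikzf1 had 10.15 and 10.48 in Id2-GFP+ pre-CD8, against 11.12 and 10.87 in Id2-GFP- pre-CD8, and 9.98 and 10.64 in Id2-GFP+ CDP, against 10.67 and 10.22 in Id2-GFP- CDP. The Id2-GFP- pre-CD8 arrays were above the other 6, and the remaining groups overlapped. Etv6 had 10.36 and 10.48 in Id2-GFP+ pre-CD8, against 11.25 and 11.05 in Id2-GFP- pre-CD8, and 10.49 and 10.81 in Id2-GFP+ CDP, against 10.98 and 10.84 in Id2-GFP- CDP. For Etv6 all 4 Id2-GFP+ arrays lay below all 4 Id2-GFP- arrays. Neither passed in pre-CD8: the difference was -0.68 ± 0.27 for Ikzf1 (limma adjusted p = 0.255) and -0.73 ± 0.19 for Etv6 (limma adjusted p = 0.0593). Both did once the array set was a block, with limma adjusted p of 0.000715 for Ikzf1 and 8.99e-05 for Etv6. For Ikzf1 the difference was -0.63 within the brighter set and -0.73 within the dimmer one, and that of Etv6 was -0.77 and -0.69.

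Irf4, the factor of the other conventional subset (cDC2) and of plasma cells, had all 4 pre-CD8 arrays above all 4 CDP arrays. It had 6.31 and 6.25 in Id2-GFP+ pre-CD8, against 6.25 and 6.60 in Id2-GFP- pre-CD8. It had 6.16 and 5.65 in Id2-GFP+ CDP, against 5.25 and 5.50 in Id2-GFP- CDP. These Irf4 values lay around the array medians of 6.12 to 6.27, a low range in which RMA compresses differences. Among Id2-GFP- cells the difference of pre-CD8 minus CDP was 1.05 ± 0.22, 2.07-fold, with a 95% interval of 0.54 to 1.55 (limma adjusted p = 0.0678). It passed with the array set as a block (limma adjusted p = 0.000551). This comparison also crosses the genotype field. Among Id2-GFP+ cells, where the field is the same, the stage difference was 0.37 ± 0.22 with a 95% interval of -0.13 to 0.88 and did not pass (limma adjusted p = 1, or 0.281 with the array set as a block). It was smaller than the 0.53 ± 0.22 of Id2-GFP+ over Id2-GFP- CDP, a gap that was not tested.

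Runx3, a Runt factor of CD8 T cells and Langerhans cells, and Gfi1, a zinc finger repressor of neutrophil development, passed in no comparison, with the array set as a block or without. Runx3 had 9.33 and 8.75 in Id2-GFP+ pre-CD8, against 9.33 and 9.42 in Id2-GFP- pre-CD8, and 9.23 and 9.21 in Id2-GFP+ CDP, against 9.19 and 9.24 in Id2-GFP- CDP. Its group means spanned 0.34, less than the gap of 0.58 between its Id2-GFP+ pre-CD8 replicates. Gfi1 had 5.96 and 6.52 in Id2-GFP+ pre-CD8, against 6.85 and 6.08 in Id2-GFP- pre-CD8, and 5.86 and 6.85 in Id2-GFP+ CDP, against 6.45 and 5.87 in Id2-GFP- CDP. Its group means spanned 0.31, while replicates of a group differed by 0.55 to 1.00. The 95% interval of its reporter difference in pre-CD8 ran from -1.14 to 0.69, with an SE of 0.40. The SE was 0.14 once the array set was a block, and the limma adjusted p was then 0.339.

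The gaps between replicates had a pattern of their own. Gfi1, Ikzf1, Spi1 and Etv6 were higher in the brighter array than in the dimmer one in all 4 groups, as were 41.8% of all genes tested. Relb, Runx3 and Irf4 were lower in the brighter array in all 4 groups, as were 16.9% of all genes. For Ikzf1 the gap was 0.34 in Id2-GFP+ pre-CD8, 0.24 in Id2-GFP- pre-CD8, 0.66 in Id2-GFP+ CDP and 0.44 in Id2-GFP- CDP. For Spi1 it was 0.47 in Id2-GFP+ pre-CD8, 0.36 in Id2-GFP- pre-CD8, 0.46 in Id2-GFP+ CDP and 0.08 in Id2-GFP- CDP. For Zbtb46 it was 0.36 in Id2-GFP+ pre-CD8, -0.62 in Id2-GFP- pre-CD8, -0.12 in Id2-GFP+ CDP and -0.65 in Id2-GFP- CDP, so that the reporter difference was wider within the brighter set than within the dimmer one at both stages. The labels give no reason for the 2 sets.

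**Figure D2:**
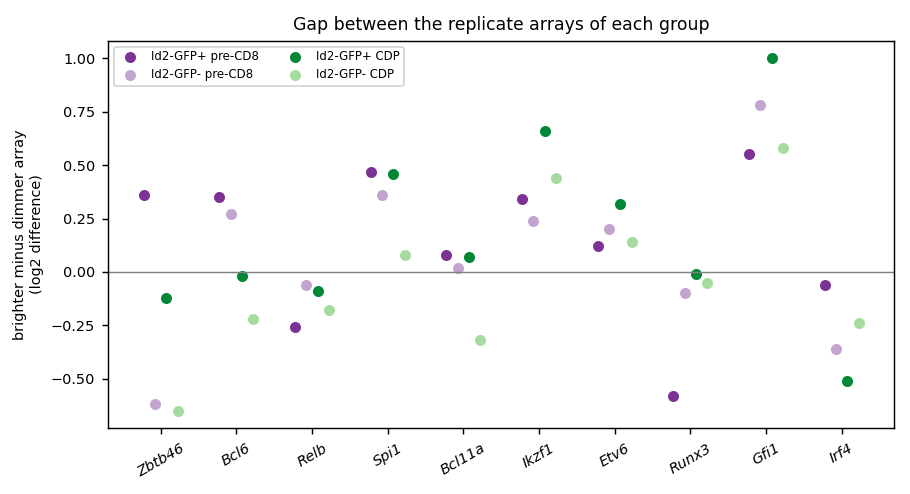
Log2 intensity of the brighter minus that of the dimmer array (y axis) for each factor (x axis), with a point per group. All points of Gfi1, Ikzf1, Spi1 and Etv6 are above 0, and those of Relb, Runx3 and Irf4 are below 0.

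Of the 10 factors, 3 rose and 1 fell in Id2-GFP+ against Id2-GFP- pre-CD8, where limma called 6.26% of all genes, 3.57% rising and 2.70% falling. Those were Zbtb46, Bcl6 and Spi1 upward and Bcl11a downward. The replicates of the 2 groups did not overlap for 7 of the 10, against 40.5% of all genes. Once the array set was a block, 7 of the 10 passed, Relb, Ikzf1 and Etv6 being the added ones, and 24.2% of all genes were then called. The median difference of the 10 was -0.19, and that of all genes was -0.01. Arrays read pooled cells, so fewer cells of a type and less RNA per cell cannot be told apart.

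Marker lists of several cell types moved between the same groups. Of 17 neutrophil and granule markers, 12 rose and 1 fell in Id2-GFP+ pre-CD8, and their summed intensity was 43447 and 50335 on the 2 arrays, against 14267 and 19032 in Id2-GFP- pre-CD8. Ly6g, a surface marker of neutrophils, averaged 7.86 ± 0.28 among Id2-GFP+ pre-CD8 arrays and 5.49 ± 0.11 among Id2-GFP- pre-CD8 arrays (SD, n = 2). Mpo was the marker of this list that fell, with -1.96 ± 0.46 (limma adjusted p = 0.0459). Ctsg at -1.58, Csf3r at -1.22, Prtn3 at 0.03 and Elane at 1.26 did not pass, so the list was not uniform. Of 12 B lineage markers measured, 0 rose and 6 fell, with sums of 833 and 868 in Id2-GFP+ pre-CD8, against 2591 and 3639 in Id2-GFP- pre-CD8. Those were Ebf1, Vpreb1, Blnk, Bank1, Rag1 and Rag2. Other B lineage markers did not pass. Pax5, which fixes B cell identity, averaged 5.73 ± 0.01 among Id2-GFP+ pre-CD8 arrays and 6.47 ± 0.49 among Id2-GFP- pre-CD8 arrays (SD, n = 2), with a limma adjusted p of 0.153. Cd79a, a part of the B cell receptor, averaged 4.96 ± 0.15 among Id2-GFP+ pre-CD8 arrays and 5.30 ± 0.27 among Id2-GFP- pre-CD8 arrays (SD, n = 2), with a limma adjusted p of 0.670. Of 15 cDC1 markers measured, 10 rose and 0 fell, with sums of 21607 and 29595 in Id2-GFP+ pre-CD8, against 8112 and 9192 in Id2-GFP- pre-CD8. The list for monocytes and macrophages, 11 genes measured, had 4 that rose and 1 that fell, with sums of 10045 and 10610 in Id2-GFP+ pre-CD8, against 3000 and 3227 in Id2-GFP- pre-CD8. Of 12 shared conventional dendritic cell markers measured, 10 rose and 1 fell. Their sums were 29144 and 40843 in Id2-GFP+ pre-CD8, against 9599 and 9949 in Id2-GFP- pre-CD8. Of 7 progenitor gate genes measured, 1 rose and 5 fell. Their sums were 6963 and 9381 in Id2-GFP+ pre-CD8, against 15226 and 18797 in Id2-GFP- pre-CD8. The part of these lists in the differences of the 10 factors was not tested. These intensities hold no value of 0.

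In Id2-GFP+ against Id2-GFP- CDP, 1 of the 10 factors passed, Bcl6, which rose, where limma called 0.597% of all genes and all of those rose. Bcl6, Zbtb46 and Irf4 passed with the array set as a block, where 7.85% of all genes were called. Of those, 735 rose and 831 fell, so the one-sided direction of the fit without the block did not hold there. Irf4 had a difference of 0.53 ± 0.22 and a limma adjusted p of 0.854 without the block and 0.0444 with it. The other 7 factors had differences between -0.26 and 0.25. In these groups 11 of 17 neutrophil and granule markers rose and 0 fell, with summed intensities of 62976 to 96971 in Id2-GFP+ CDP, against 18702 to 31912 in Id2-GFP- CDP. Of the cDC1 markers 4 of 15 rose and 0 fell, with sums of 14415 to 16277 in Id2-GFP+ CDP, against 7401 to 8417 in Id2-GFP- CDP. Their part was not tested, and this comparison crosses the genotype field.

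**Figure D3:**
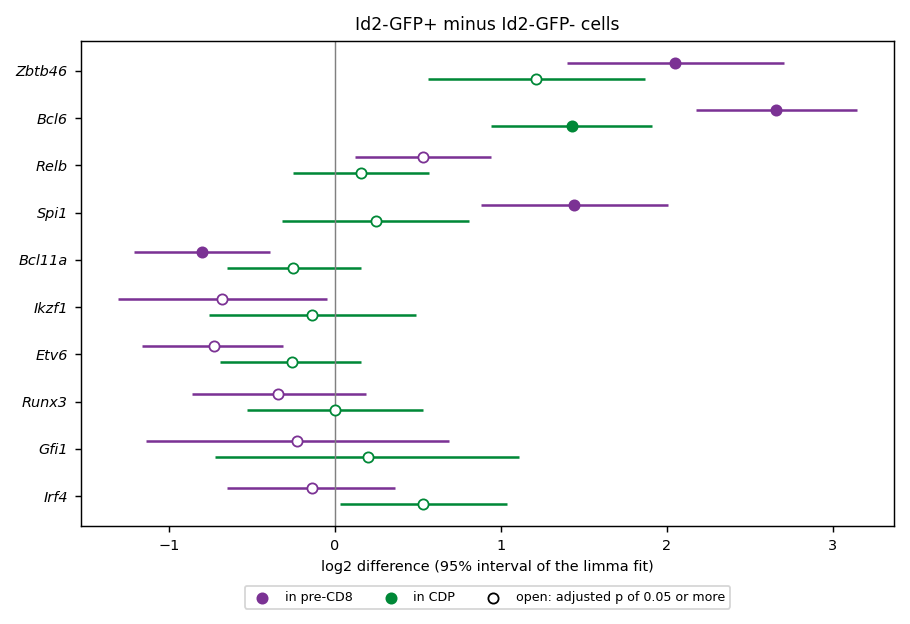
Log2 difference of Id2-GFP+ minus Id2-GFP- cells (x axis) for each factor (y axis), with the 95% interval of the limma fit, within pre-CD8 (upper, purple) and within CDP (lower, green). Filled points passed the test: Zbtb46, Bcl6, Spi1 and Bcl11a in pre-CD8 and Bcl6 in CDP.

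Averaged over both stages, the reporter difference passed for the same 4 factors as in pre-CD8, where limma called 6.32% of all genes. It was 1.63 ± 0.20 for Zbtb46 (limma adjusted p = 0.00303) and 2.04 ± 0.15 for Bcl6 (limma adjusted p = 0.000323). Both held with any array left out. Spi1 rose by 0.84 ± 0.17 (limma adjusted p = 0.0278), a call lost in 5 of 8 such fits. Bcl11a fell by 0.52 on the log2 scale with an SE of 0.13 (limma adjusted p = 0.0481), a call lost in all 8, where the adjusted p was 0.0828 to 0.185. Zbtb46, Bcl6 and Etv6 were the factors whose 4 Id2-GFP+ arrays did not overlap with the 4 Id2-GFP- arrays, which held for 9.95% of all genes. With Relb, Ikzf1 and Etv6 added, 7 factors passed once the array set was a block, as did 25.9% of all genes.

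Whether the reporter difference was larger in pre-CD8 than in CDP was tested as an interaction. None of the 10 factors passed it in limma, where 0.145% of all genes were called. An unadjusted p under 0.05 was found for 2 of the 10 and for 1227 of all 19938 genes. Those 2 were Bcl6, with 1.24 ± 0.30 (limma adjusted p = 0.241), and Spi1, with 1.20 ± 0.35 (limma adjusted p = 0.375). For Zbtb46 it was 0.84 ± 0.40 (limma adjusted p = 0.924). In the fit with the array set as a block, where 7.48% of all genes were called, Bcl6 (limma adjusted p = 0.00624), Spi1 (limma adjusted p = 0.00107) and Etv6 (limma adjusted p = 0.0390) passed. The Spi1 interaction also passed after quantile normalization (limma adjusted p = 0.0366) and after scaling to the 75th percentile (limma adjusted p = 0.0216). More of all genes passed it under these settings too. As reported, 7 rose and 22 fell. After quantile normalization 101 rose and 101 fell, and after scaling 117 rose and 145 fell.

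In pre-CD8 against CDP among Id2-GFP- cells, none of the 10 factors passed in limma, where 1.63% of all genes were called. An unadjusted p under 0.05 was found for 3 of the 10 and for 1833 of all 19938 genes. Replicates did not overlap for 7 of the 10, against 31.6% of all genes. The 3 were Irf4, given above, Spi1 and Bcl11a. Spi1 had a difference of -0.90 ± 0.25 with a 95% interval of -1.47 to -0.34 (limma adjusted p = 0.160), and Bcl11a one of 0.69 ± 0.18 with an interval of 0.28 to 1.09 (limma adjusted p = 0.133). Zbtb46 had 0.00 ± 0.29, with an interval of -0.66 to 0.65, between groups that differ in the genotype field. Its arrays there, at 5.48 to 6.13, were near or below the array medians of 6.12 to 6.27. Whether low signal hid a difference was not tested. Irf4, Bcl11a and Ikzf1 upward and Spi1 downward passed with the array set as a block, where 12.5% of all genes were called. On the list for monocytes and macrophages 0 of 11 rose and 7 fell in Id2-GFP- pre-CD8, with sums of 3000 and 3227, against 12182 and 13653 in Id2-GFP- CDP. Of the B lineage markers 5 of 12 rose and 0 fell, with sums of 2591 and 3639 in Id2-GFP- pre-CD8, against 1036 and 1050 in Id2-GFP- CDP. Their part was not tested.

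In pre-CD8 against CDP among Id2-GFP+ cells, where both groups have the same genotype field, none of the 10 factors passed in limma and 3 had an unadjusted p under 0.05. The share of all genes called was 0%, with 643 of them at an unadjusted p under 0.05. Replicates did not overlap for 6 of the 10, against 19.3% of all genes. The 3 factors were Bcl6, Zbtb46 and Relb, each higher in pre-CD8. Bcl6 had a difference of 0.91 ± 0.21 with an interval of 0.42 to 1.39 (limma adjusted p = 0.527). Zbtb46 had 0.84 ± 0.29 with an interval of 0.18 to 1.49, and Relb 0.46 ± 0.18 with an interval of 0.05 to 0.87, both at an adjusted p of 1. Bcl6 passed with the array set as a block (limma adjusted p = 0.0140), where 2.08% of all genes were called, and Zbtb46 did not pass (limma adjusted p = 0.0884).

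**Figure D4:**
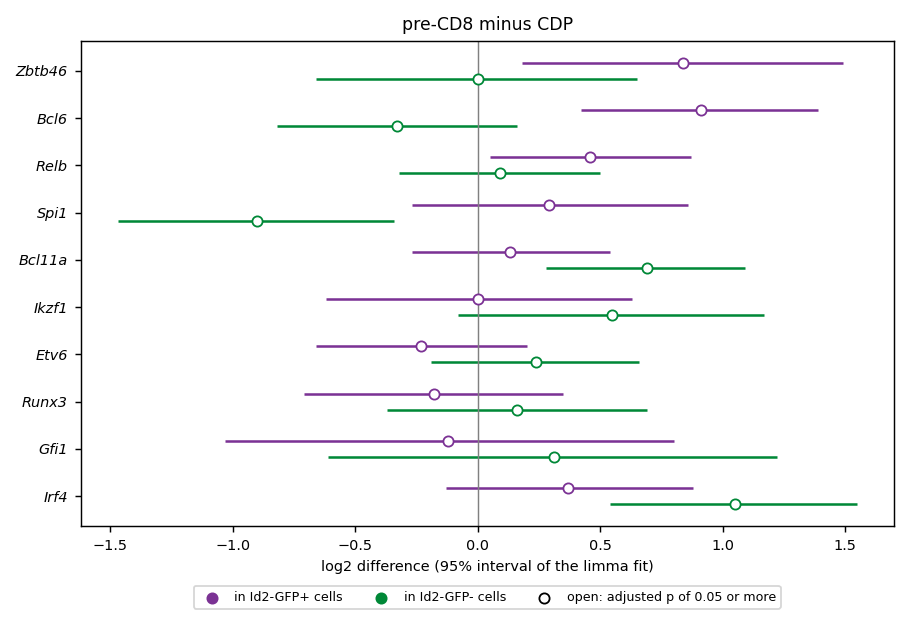
Log2 difference of pre-CD8 minus CDP (x axis) for each factor (y axis), with the 95% interval of the limma fit, among Id2-GFP+ cells (upper, purple) and Id2-GFP- cells (lower, green). No factor passed the test in either, and the intervals of Spi1, Bcl11a and Irf4 among Id2-GFP- cells and of Zbtb46, Bcl6 and Relb among Id2-GFP+ cells leave out 0.

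The crosswise comparisons, in which stage and reporter both change, share groups with those above, so their values are set side by side only. In Id2-GFP+ pre-CD8 against Id2-GFP- CDP, Zbtb46 and Bcl6 rose, where 1.79% of all genes were called. The difference was 2.05 ± 0.29 for Zbtb46 (limma adjusted p = 0.0126) and 2.33 ± 0.21 for Bcl6 (limma adjusted p = 0.00216). The Zbtb46 call was lost without replicate 2 of Id2-GFP+ pre-CD8 or replicate 1 of Id2-GFP- CDP, with an adjusted p of up to 0.120. Replicates did not overlap for 6 of the 10, against 33.5% of all genes. Once the array set was a block, 6 passed (Relb, Spi1, Irf4 and Etv6 added), as did 15.8% of all genes. Between these groups 10 of 17 neutrophil and granule markers rose and 3 fell. Of 11 markers of monocytes and macrophages 2 were up and 3 down in the test. On the cDC1 list 9 of 15 passed upward and 0 downward, with a median difference of 1.66. The list shared by conventional dendritic cells, 12 genes measured, had 6 up and 0 down, with a median of 1.82. In Id2-GFP- pre-CD8 against Id2-GFP+ CDP, which have the same genotype field, Bcl6 and Spi1 fell and Bcl11a rose, where 4.89% of all genes were called. Bcl6 had -1.76 ± 0.21 (limma adjusted p = 0.00345) and held with any array left out. Spi1 had -1.15 ± 0.25 (limma adjusted p = 0.0363) and was lost in 6 of 8 such fits, and Bcl11a had 0.93 ± 0.18 (limma adjusted p = 0.0215) and was lost in 4 of them. Zbtb46 had -1.22 ± 0.29 and did not pass (limma adjusted p = 0.0522). Replicates did not overlap for 8 of the 10, against 34.9% of all genes. Once the array set was a block, 7 passed (Zbtb46, Ikzf1, Etv6 and Irf4 added), as did 21.9% of all genes. Here 13 of 17 neutrophil and granule markers fell and 0 rose, with sums of 14267 and 19032 in Id2-GFP- pre-CD8, against 62976 and 96971 in Id2-GFP+ CDP. Of the monocyte and macrophage markers 9 of 11 fell and 0 rose, and of the B lineage markers 6 of 12 rose and 0 fell. The part of these markers in either comparison was not tested.

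The factors fell into opposed patterns over the 8 arrays, given as a description because the arrays share groups and array sets. Zbtb46 and Bcl6 correlated with Relb (r = 0.85 and 0.80) and with Spi1 (r = 0.71 and 0.83). They ran opposite to Etv6 (r = -0.91 and -0.90). Etv6 went with Ikzf1 (r = 0.85) and Bcl11a (r = 0.75), and Spi1 ran opposite to Bcl11a (r = -0.85). Gfi1 and Ikzf1 also correlated (r = 0.73), and both were higher in the brighter array of every group. Other pairs were weaker. Zbtb46 and Bcl6 had r of -0.56 and -0.68 with Bcl11a, and of -0.59 and -0.58 with Ikzf1. Relb had r of 0.46 with Spi1 and -0.30 with Bcl11a. Irf4 had r of 0.36 with Zbtb46 and 0.20 with Bcl6, and Gfi1 had -0.19 and -0.04. Runx3 had r of -0.55 with Zbtb46, -0.61 with Bcl6 and -0.74 with Spi1.

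Among 1800 named genes whose group means spanned at least 1 log2 unit, 191 reached r of 0.9 or more with Zbtb46 and 260 with Bcl6 over the 8 arrays. The 5 most like Zbtb46 were Slamf7 (r = 0.992), Tlr12 (r = 0.988), Srgap3 (r = 0.986), Ccdc102a (r = 0.985) and Siglecg (r = 0.984). Slamf7, a receptor of immune cells, had group means of 10.15 in Id2-GFP+ pre-CD8, 5.49 in Id2-GFP- pre-CD8, 8.25 in Id2-GFP+ CDP and 5.18 in Id2-GFP- CDP. Tlr12, a mouse receptor for a protein of protozoan parasites, had 8.72 in Id2-GFP+ pre-CD8, 6.10 in Id2-GFP- pre-CD8, 7.78 in Id2-GFP+ CDP and 6.51 in Id2-GFP- CDP. The 5 most like Bcl6 were Naaa (r = 0.995), Myadm (r = 0.995), Alcam (r = 0.995), Adgra2 (r = 0.993) and Arhgef40 (r = 0.992). Naaa, a lysosomal hydrolase high in cDC1, had 11.44 in Id2-GFP+ pre-CD8, 6.99 in Id2-GFP- pre-CD8, 10.18 in Id2-GFP+ CDP and 7.63 in Id2-GFP- CDP. Alcam, an adhesion molecule, had 10.27 in Id2-GFP+ pre-CD8, 8.27 in Id2-GFP- pre-CD8, 9.50 in Id2-GFP+ CDP and 8.44 in Id2-GFP- CDP.

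**Figure D5:**
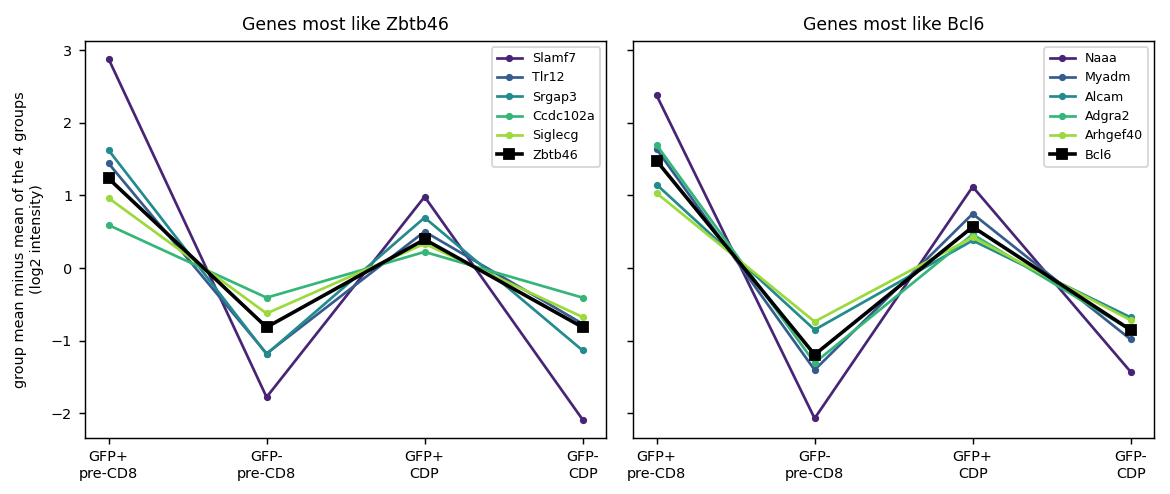
Mean log2 intensity of each group minus the mean of the 4 groups (y axis), by group (x axis), for Zbtb46 with the 5 genes most like it (left) and Bcl6 with the 5 most like it (right). All genes drawn are highest in Id2-GFP+ pre-CD8, second in Id2-GFP+ CDP and below their own mean in both Id2-GFP- groups.

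Relatives and partners of the factors were measured for 41 of 45 genes listed. In Id2-GFP+ against Id2-GFP- pre-CD8, 2 rose and 4 fell, with a median of -0.04, against -0.01 for all genes, of which 6.26% passed. Once the array set was a block, 8 of these relatives rose and 12 fell, where 24.2% of all genes passed. Zbtb7b, another BTB zinc finger factor, known for committing thymocytes to the CD4 lineage, rose by 2.96 ± 0.28 (limma adjusted p = 0.00124), and Irf5, a factor of toll-like receptor signalling, by 2.06 ± 0.23 (limma adjusted p = 0.00208). Erg, an Ets factor of stem and progenitor cells, had -2.77 ± 0.38 (limma adjusted p = 0.00455), and Etv1, another Ets factor, -1.06 ± 0.16 (limma adjusted p = 0.00689). In CDP, 1 rose and 0 fell, with a median of 0.07: Zbtb7b at 1.76 ± 0.28 (limma adjusted p = 0.0442). Of all genes 0.597% passed there. The block gave 6 relatives up and 2 down, where 7.85% of all genes were called. In pre-CD8 against CDP among Id2-GFP- cells, 3 rose and 0 fell, with a median of 0.09, against 0.00 for all genes. Those were Etv1, with 1.12 ± 0.16 (limma adjusted p = 0.0144), Gfi1b, a relative of Gfi1 in erythroid cells, with 2.03 ± 0.33 (limma adjusted p = 0.0237), and Ets1, a lymphoid Ets factor, with 1.95 ± 0.35 (limma adjusted p = 0.0380). Of all genes 1.63% passed there. The block gave 9 relatives up and 1 down, where 12.5% of all genes were called. In limma 0 passed in pre-CD8 against CDP among Id2-GFP+ cells and 0 in the interaction, where 4 and 7 had an unadjusted p under 0.05. Of all genes, 643 and 1227 did. With the array set again as the block, 2 rose and 1 fell among Id2-GFP+ cells, and in the interaction 2 rose and 6 fell. Of all genes, 2.08% and 7.48% were then called.

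Genes reported as targets of these factors, 28 listed and 28 measured, were counted likewise. In Id2-GFP+ against Id2-GFP- pre-CD8, 2 rose and 11 fell, with a median of -0.74, where 3.57% of all genes rose and 2.70% fell. Once the array set was a block, 4 of these targets rose and 17 fell, where 24.2% of all genes passed. The 4 with the smallest p were lymphoid genes. Rag2 and Rag1, the recombinase of antigen receptor genes, had -3.09 ± 0.14 (limma adjusted p = 0.000161) and -3.91 ± 0.32 (limma adjusted p = 0.000711). Il7r, a cytokine receptor of lymphoid progenitors, had -3.91 ± 0.26 (limma adjusted p = 0.000453), and Blnk, an adaptor of B cell signalling, -3.93 ± 0.34 (limma adjusted p = 0.000858). Rag1, Rag2, Blnk, Ebf1 and Vpreb1, which all fell here, are also on the B lineage list, whose sums are given above. Il7r, Flt3 and Csf1r, which fell, and Csf2ra, which rose, are also on the list of progenitor gate genes. Ccr9, which fell, is on a list of plasmacytoid dendritic cell markers, and Cebpe, which rose, on the neutrophil and granule list. The counts of targets and of markers therefore share genes in every comparison. Rag1, Rag2 and Il7r passed the interaction downward. In CDP, 1 rose and 0 fell, with a median of 0.06: Cebpe, a factor of granulocytes, at 2.58 ± 0.42 (limma adjusted p = 0.0442). The block gave 3 targets up and 4 down there. Of all genes 0.597% passed in CDP without the block and 7.85% with it. In pre-CD8 against CDP among Id2-GFP- cells, 8 rose and 1 fell, with a median of 0.37, and the block gave 10 up and 2 down. Of all genes 1.63% passed in this comparison without the block and 12.5% with it. Rag2 rose by 2.74 ± 0.14 (limma adjusted p = 0.000212), Il7r by 3.64 ± 0.26 (limma adjusted p = 0.00117), Rag1 by 4.08 ± 0.32 (limma adjusted p = 0.00126) and Ccr9, a homing receptor, by 3.51 ± 0.31 (limma adjusted p = 0.00170). Csf1r, a target of Spi1 and a receptor used to define the CDP, was the gene that fell, with -1.94 ± 0.23 (limma adjusted p = 0.00663). It also fell in Id2-GFP+ against Id2-GFP- pre-CD8, with -1.09 ± 0.23 (limma adjusted p = 0.0274), where Spi1 rose.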

How the data were processed

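Total RNA of sorted bone marrow cells was labelled with a kit for very small inputs and hybridised to Affymetrix arrays, per the labels' protocols. The deposited table holds linear intensity values for 28853 probe sets, made by the authors with RMA in Affymetrix Expression Console, per the submitters' processing notes, with versions not given in the sources used here. RMA compresses low values, so differences of dim genes are understated, and no detection call was used. The design had assumed log2 values; log2 was taken from the linear table, with no further normalisation.

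The annotation gave 1 symbol to 21789 probe sets, several to 1621 and no entry to 5443, which left 19938 genes after the probe set with the highest mean was kept for each. Positions and start regions come from RefSeq tables (GRCm38.p6). Near-identical paralogs can share probes.

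The fit was limma 3.58.1 in R 4.3.3 over all 8 arrays, with a mean per group and an intensity trend. It had 4 residual and 8.19 total degrees of freedom. Tests were two-sided, adjusted by Benjamini-Hochberg over all genes. The number of arrays limits precision. The script was tested on simulated data. Python 3.11.15 prepared tables and figures.

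The members and lists were chosen with earlier results of these data known. All 10 members are named, with the 5 genes best correlated with Zbtb46 and Bcl6 and up to 4 genes per list with the smallest p among those called; genes outside this rule (markers) are context. Replicate numbers do not pair the samples: deviations of same-numbered arrays correlated with r of 0.69 to 0.71 within a reporter class and -0.69 to -0.63 between classes. Alternatives were quantile normalisation, scaling to the 75th percentile, no trend, a robust prior, a filter on the dimmest 25% of genes, other probe set rules, only the groups compared, a replicate block, each array left out and, chosen after seeing the data, the array set as a block.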

Additional observations from a re-analysis of the deposited data

How the results depend on the processing

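Across the alternatives, 1420 differences of the 10 factors were recomputed: 1314 kept their side of the threshold, 52 lost the call, 54 gained one, and no difference called in either fit changed sign. Another 25 changed sign where neither fit called them, the largest being 0.42 as reported. Counts of factors called were as reported in this order: 4 for the reporter difference averaged over stages, 1 in CDP, 4 in pre-CD8, 2 for Id2-GFP+ pre-CD8 against Id2-GFP- CDP, 3 for Id2-GFP- pre-CD8 against Id2-GFP+ CDP, and 0 for both stage comparisons and the interaction. With the array set as a block these were 7, 3, 7, 6, 7, then 1 for the stage comparison in Id2-GFP+ cells, 4 for that in Id2-GFP- cells and 3 for the interaction. With the replicate number as a block, which does not pair these samples, the averaged count was 2 and the CDP count 0, and no other count moved by over 1.5 times. Quantile normalisation gave 6 averaged, 6 in pre-CD8 and 3 for Id2-GFP+ pre-CD8 against Id2-GFP- CDP. It also gave 6 for Id2-GFP- pre-CD8 against Id2-GFP+ CDP, 2 for the stage comparison in Id2-GFP- cells and 1 for the interaction. Scaling to the 75th percentile gave 5, 6, 3, 5, 2 and 1 for these, in the same order. Calls among all genes also increased under both settings. In Id2-GFP+ against Id2-GFP- pre-CD8, 711 rose and 538 fell as reported. These were 1305 and 1262 after quantile normalisation, and 1228 and 1174 after scaling. For Id2-GFP- pre-CD8 against Id2-GFP+ CDP, 415 rose and 560 fell as reported. These were 1012 and 1089 after quantile normalisation, and 884 and 1057 after scaling. For the stage comparison in Id2-GFP- cells, 206 rose and 118 fell as reported. These were 416 and 442 after quantile normalisation, and 427 and 441 after scaling. Leaving out the dimmest genes gave 5 in pre-CD8, 4 for Id2-GFP- pre-CD8 against Id2-GFP+ CDP and 1 for the stage comparison in Id2-GFP- cells. Testing every probe set, or only the arrays of the groups compared, gave 0 in CDP. The latter also gave 3 in pre-CD8 and 2 for Id2-GFP- pre-CD8 against Id2-GFP+ CDP. The robust prior gave 3 averaged. The cause of these changes was not tested. With each array left out in turn the counts ranged from 2 to 3 averaged, 0 to 1 in CDP, 2 to 4 in pre-CD8, 1 to 2 and 1 to 3 for the crosswise comparisons, and 0 to 1 for the stage comparison in Id2-GFP- cells, with 0 throughout for that in Id2-GFP+ cells and for the interaction. Where a group kept a lone array, it was assumed to vary like the others. Array numbers limit what could be called.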
